A study of Homo sapiens with 9 samples.

Results

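Gene expression was compared between 6 arrays of HEK293 cells transfected with an siRNA against DBC1 or ZNF326 and 3 arrays of the same cells transfected with a control siRNA. HEK293 is an established human embryonic kidney line, grown here in DMEM with serum. The groups were control siRNA (siCTR), DBC1 siRNA (siDBC1) and ZNF326 siRNA (siZNF326), all stealth siRNAs, with RNA taken 48 h after transfection and 3 arrays per group described as independent experiments. All 9 samples therefore share the line, the medium and a transfection. No untransfected cells were analysed here, and the number of different siRNAs per target was not given in the sources used here. A probe set here gives 1 value per array, on the log2 scale, and no values for single exons or isoforms were read. It was counted as separated when all 6 siRNA arrays lay strictly above, or all 6 strictly below, all 3 siCTR arrays. This held for 861 of 22011 probe sets, or 3.91%, with 513 above (2.33%) and 348 below (1.58%). Of these, 589 carried 1 gene symbol, for 357 genes above and 230 below, 90 carried several symbols and 182 carried none.

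Both siRNA groups were read against the same 3 siCTR arrays. A shift of those 3 arrays and a shift common to both siRNA groups cannot be told apart, and agreement between both groups is no independent evidence of an effect. The gene CCAR2 encodes DBC1. Together with the zinc finger protein ZNF326 (ZIRD) it forms DBIRD, a complex found at the interface of transcribing RNA polymerase II and the packaged messenger RNA. Pooling them asks which transcripts differ from the control whichever of the subunits is targeted. The transcript of CCAR2 (probe set 3089597) read 7.67, 7.67 and 7.84 in siCTR and 6.50, 6.54 and 6.65 in siDBC1, against 8.02, 7.95 and 7.99 in siZNF326. ZNF326 (probe set 2346074) read 5.25, 5.63 and 5.76 in siCTR and 6.12, 5.56 and 5.81 in siZNF326. In siDBC1 it read 6.24, 5.64 and 7.32, a wide spread within 1 group (SD 0.852). CCAR2 was thus lower in siDBC1, while the ZNF326 transcript showed no decrease under the siRNA named for it, so that name is used here as a label of the arrays. Neither gene was separated.

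All 6 listed markers of the line (VIM, KRT8, KRT18, NEFL, INA and NEFM) had siCTR means above the median probe set, from 5.84 to 10.4. The lowest, NEFM, lay below the fibroblast marker COL1A1 (6.475). No detection values were used, so presence was not called. Markers of blood, liver, fibroblast, endothelial and epithelial cells had siCTR means from 1.72 to 6.50 in the 21 of 24 that were measured, and 18 of these lay below the median probe set. Of these 21 markers COL1A1 (fibroblast) was separated above siCTR and CLDN4 (epithelial) below, by differences of 0.17 and −0.20; neither passed, and neither was separated under either rescaling. Array medians ran from 5.58 to 5.90. The 3 arrays farthest from the mean of their own group were siDBC1 replicates 2 and 3 and siZNF326 replicate 1, which deviated with an SD of 0.327, 0.343 and 0.270 over probe sets, against 0.189 to 0.222 in the other arrays. The labels give no batch.

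The gene lists read here cover several regulatory programmes. They were chosen with earlier results of these data known, so shares of their members are descriptions. In the integrated stress response, kinases that sense missing amino acids, unfolded proteins, haem shortage or double-stranded RNA phosphorylate the translation factor eIF2, and the transcription factor ATF4 then raises genes for amino acid synthesis, uptake and tRNA charging together with CHAC1, DDIT3 and TRIB3. ATF4 pairs with C/EBP proteins on a composite element, written here as TGATGNAA. The p53 pathway raises CDKN1A, which inhibits cyclin-dependent kinases, and genes of cell death and repair; HEK293 cells carry adenoviral proteins, one of which binds p53. The ERK pathway switches on immediate early genes and its own feedback phosphatases, such as DUSP6.

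CHAC1, the gene with the widest separation in the table, holds this element in its promoter, and it is shown for that reason with 4 other stress genes that hold it. Sequences are from RefSeq on assembly GRCh38.p14, 5′ to 3′ on the strand of the gene, and capitals mark the element, which reads TTGCATCA or a close form where it lies on the opposite strand. For CHAC1 the whole 250 bases before the start are given, on the plus strand at chr15:40953221-40953470, with the element at chr15:40953262-40953269. The others are windows of 60 bases: ASNS on the minus strand at chr7:97872443-97872502, AARS1 on the minus strand at chr16:70289660-70289719, ATF3 on the plus strand at chr1:212565190-212565249 and HERPUD1 on the plus strand at chr16:56931940-56931999.
CHAC1: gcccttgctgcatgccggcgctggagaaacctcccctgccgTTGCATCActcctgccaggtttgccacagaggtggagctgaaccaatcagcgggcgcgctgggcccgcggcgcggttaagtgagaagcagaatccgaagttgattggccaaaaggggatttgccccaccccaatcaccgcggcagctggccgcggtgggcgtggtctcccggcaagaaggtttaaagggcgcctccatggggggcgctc
ASNS: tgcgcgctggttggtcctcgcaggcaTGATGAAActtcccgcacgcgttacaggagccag
AARS1: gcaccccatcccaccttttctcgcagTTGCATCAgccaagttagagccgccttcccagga
ATF3: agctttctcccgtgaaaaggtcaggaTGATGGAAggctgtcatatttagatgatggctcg
HERPUD1: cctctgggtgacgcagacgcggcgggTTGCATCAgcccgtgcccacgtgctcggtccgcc

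TGATGNAA, searched on both strands in the 250 bases before the start, was found for 12 of the 187 genes below siCTR that had a promoter sequence (6.42%). It was found for 1 of 286 above siCTR (0.350%), which was HSPA4L, for 2.03% of 11386 genes on the array and for 3.19% of 27305 promoters in all. The 12 genes were AARS1, AOC2, ASNS, ATF3, CHAC1, DCTD, FUT1, HERPUD1, HRK, LECT2, PCGF6 and TBL1X, and 5 of them were on the stress lists, out of 32 separated stress genes with a sequence (15.6%). Another 6 words were searched. CACGTG was found for 8.74% of the genes above, 8.56% of those below and 7.96% on the array, and CCAAT for 39.2%, 39.0% and 34.7%. Among the 32 stress genes CCAAT was found for 17 (53.1%), CACGTG for 9.38% and TGAGTCA for 6.25%. TGAGTCA was found for 3.50%, 4.28% and 3.08%, and TGACGTCA for 2.45%, 3.74% and 2.48%. The CLEAR element, a longer form that contains CACGTG, was found for 1.40% of the genes above and 0.553% on the array, and the heat shock element for 0.699% and 0.325%; neither was found below. A match is a description of letters in this window, and none was tested.

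A linear model of the 3 groups (limma, mean of both siRNA groups minus siCTR, p adjusted over all 22011 probe sets by Benjamini and Hochberg) called 22 probe sets, or 0.1%, at an adjusted p under 0.05. Of these, 8 were higher (0.0363%) and 14 lower (0.0636%), with changes from 1.48 to 3.54-fold. All 22 were separated, and 19 carried 1 symbol. From here on, a gene is said to rise or fall only when called in this fit. The largest called rise, 1.37 (probe set 2902725, limma adjusted p = 0.0090), carried 2 symbols. It read 9.45, 9.56 and 9.38 in siCTR and from 10.64 to 11.14 in the siRNA arrays. With 2 symbols it is outside the gene lists and the named genes, and whether either symbol is a list member was not read. Of the 13 named genes that fell, 12 were on the stress lists, and DDR2, a collagen receptor kinase, was the other. Those lists hold 58 of the 14232 genes measured. They were drawn up with earlier results of these data known, so this share is a description. VEGFA, 1 of the 12, is also on the hypoxia list. The 6 named genes that rose were TP53I3, CDKN1A, CTSA, POLR2L, TMSB10 and GNPDA1. At an unadjusted p under 0.05 there were 1606 probe sets. The count of calls moved with single arrays: it was 36 without siDBC1 replicate 2, 13 without siDBC1 replicate 3, 6 without siZNF326 replicate 1, 3 without siCTR replicate 1, 2 without siZNF326 replicate 3, and 1 without siCTR replicate 2, siCTR replicate 3, siDBC1 replicate 1 or siZNF326 replicate 2. CHAC1 was called in all 9 of these fits.

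**Figure D1:**
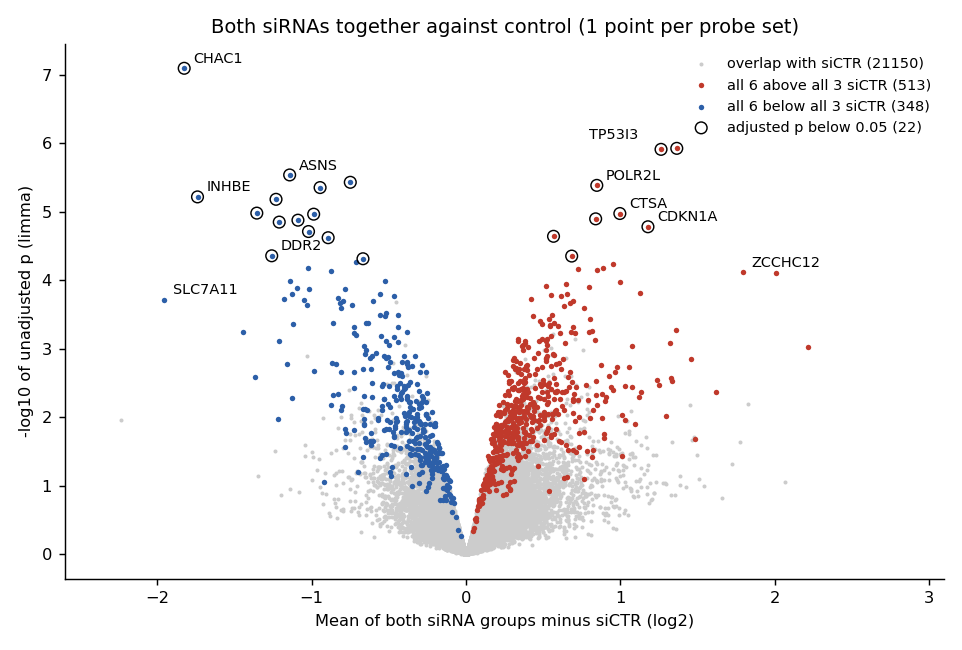
Change of both siRNA groups against siCTR (x axis, log2) and −log10 of the unadjusted limma p (y axis) for 22011 probe sets, with separated probe sets in colour and the 22 called ones circled. CHAC1 stands at the left with −1.83, and the called rises reach from POLR2L at 0.85 to TP53I3 at 1.26 among genes that carry labels.

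Effector and secreted genes of the stress response held the widest separations. CHAC1 (probe set 3590275), an enzyme that breaks down glutathione, read 7.65, 7.65 and 7.94 in siCTR, 6.27, 6.26 and 6.32 in siDBC1, and 5.42, 5.704 and 5.55 in siZNF326. All 6 siRNA arrays lay 1.33 or more below the lowest control (in these bulk samples, fewer cells with the transcript and less of it per cell cannot be told apart), and the arrays labelled siZNF326 lay below those of siDBC1. The change was −1.83 (SE 0.094, limma adjusted p = 0.00177), or 3.54-fold. INHBE (probe set 3418111), a subunit of the activins, read 6.24, 6.55 and 6.59 in siCTR, 4.87, 4.55 and 5.02 in siDBC1, and 4.65, 4.90 and 4.32 in siZNF326. The siRNA groups overlapped each other and lay at least 1.22 below siCTR, with a change of −1.74 (SE 0.160, limma adjusted p = 0.0161). VEGFA, the growth factor of blood vessels, read 7.495, 7.25 and 7.63 in siCTR, 6.28, 6.05 and 6.42 in siDBC1 and 6.46, 6.44 and 6.58 in siZNF326, a change of −1.09 (SE 0.112, limma adjusted p = 0.0207). Of the 11 effectors measured, 8 were separated below siCTR and 3 of these fell; the median of the 11 was −1.02. DDIT4, an inhibitor of mTORC1, had a difference of −1.02 (limma adjusted p = 0.0548), STC2 of −1.14 and ULBP1, a ligand of a natural killer cell receptor, of −1.21, and none of these 3 passed.

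Of the 10 enzymes of amino acid and one-carbon synthesis measured, 4 fell: PCK2, ASNS, CBS and PHGDH. ASNS, asparagine synthetase (probe set 3062576), read 9.86, 9.86 and 10.02 in siCTR, 8.96, 8.65 and 8.99 in siDBC1, and 8.76, 8.59 and 8.67 in siZNF326. The nearest siRNA array lay 0.87 below the nearest control, and the change was −1.14 (SE 0.095, limma adjusted p = 0.0139). PCK2, the mitochondrial phosphoenolpyruvate carboxykinase, read 7.90, 8.08 and 8.47 in siCTR, 7.05, 6.81 and 7.05 in siDBC1, and 6.76, 6.50 and 6.59 in siZNF326. Its change was −1.36 (SE 0.135, limma adjusted p = 0.0199). CBS, which makes cystathionine from homocysteine, changed by −0.99 and PHGDH, which opens serine synthesis, by −0.67. In all, 8 of the 10 were separated below siCTR, and the median over the list was −0.93. CTH, the next enzyme after CBS, had the largest difference of the list, −1.45, but also spread more: it read 6.17, 5.46 and 6.58 in siDBC1 and 6.62, 5.98 and 6.52 in siZNF326 against 7.61, 7.47 and 7.93 in siCTR (limma adjusted p = 0.140). GOT1 (0.07) and ALDH18A1 (0.05) overlapped siCTR.

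Among 12 amino acid transporters, 7 were separated below siCTR, 3 fell, and the median was −0.71. SLC7A5 (probe set 3703885), the light chain of a carrier of large neutral amino acids, read 8.63, 8.79 and 8.997 in siCTR, 7.90, 7.68 and 7.95 in siDBC1, and 7.48, 7.29 and 7.15 in siZNF326. Its change was −1.23 (SE 0.115, limma adjusted p = 0.0161). SLC43A1, a second carrier of large neutral amino acids, changed by −1.02 and SLC6A9, a glycine carrier, by −0.75. SLC7A11, the cystine carrier (probe set 2786322), had the largest difference of any separated gene with 1 symbol below siCTR, at −1.95 (SE 0.294), and did not pass (limma adjusted p = 0.0801). It read 8.11, 8.29 and 8.68 in siCTR, 6.70, 5.85 and 7.19 in siDBC1, and 6.55, 5.91 and 6.26 in siZNF326, so that its gap of 0.92 was wide while the siDBC1 arrays spread over more than a unit. SLC3A2, the heavy chain shared by SLC7A5 and SLC7A11, had a difference of −0.83 (limma adjusted p = 0.0801). SLC36A4, SLC7A3, SLC1A5, SLC38A1 and SLC38A2 overlapped siCTR as deposited. SLC1A5 was separated below under both rescalings, and SLC38A1 under quantile rescaling.

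All 13 genes on the list of aminoacyl-tRNA synthetases, the enzymes that charge tRNAs, had a mean below siCTR, with a median of −0.61; the list includes XPOT, a nuclear exporter of tRNA. MARS1 alone was called, with a change of −0.89 (SE 0.0996, limma adjusted p = 0.0276), and 10 of the 13 had an unadjusted limma p under 0.05. The separated ones were MARS1, CARS1, GARS1, AARS1, YARS1, WARS1 and SARS1, with differences from −0.89 to −0.61. EPRS1, IARS1, LARS1, NARS1 and TARS1 overlapped siCTR as deposited and were separated below it under both rescalings. XPOT overlapped siCTR under every scaling.

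Of the 12 transcription factors and regulators of the stress response, 8 were separated below siCTR, and DDIT3 fell. DDIT3, a C/EBP-related factor also called CHOP (probe set 3458587), read 6.56, 6.70 and 6.97 in siCTR, 5.34, 5.38 and 5.698 in siDBC1, and 5.69, 5.43 and 5.66 in siZNF326. Its change was −1.21 (SE 0.125, limma adjusted p = 0.0207). NUPR1, CEBPG, the pseudokinase TRIB3, the phosphatase subunit PPP1R15A, JDP2, ATF3 and CEBPB were separated with differences from −1.16 to −0.30 and did not pass; CEBPB was not separated after rescaling by quantiles or centring on array medians. The value for ATF4 itself, a factor controlled largely through its translation, did not move with them: it read 5.98, 5.98 and 5.99 in siCTR, 5.998, 5.76 and 6.21 in siDBC1, and 6.03, 5.87 and 6.05 in siZNF326, a difference of 0.00 with a 95% interval from −0.24 to 0.24. These values lay close to the array medians of 5.58 to 5.90. How well this probe set reports the transcript was not tested.

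Over the 5 stress lists, 38 of 58 measured genes (65.5%) were separated below siCTR and 0 above, against 1.59% and 2.48% of 14232 genes with 1 probe set each. Their median difference was −0.67, against 0.02 over all genes. By array, their median relative to siCTR stood at −0.62, −0.94 and −0.41 in siDBC1 and −0.57, −0.79 and −0.83 in siZNF326, and it was −0.12, −0.06 and 0.17 in siCTR itself. siCTR replicate 3 was the highest control for 54 of these 58 genes (93.1%), against 59.8% of all genes, and without it the median was −0.61. siDBC1 replicate 2 was the lowest siRNA array for 32 of them (55.2%, against 47.4% of all genes). The part of these arrays in the result beyond these values was not tested.

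**Figure D2:**
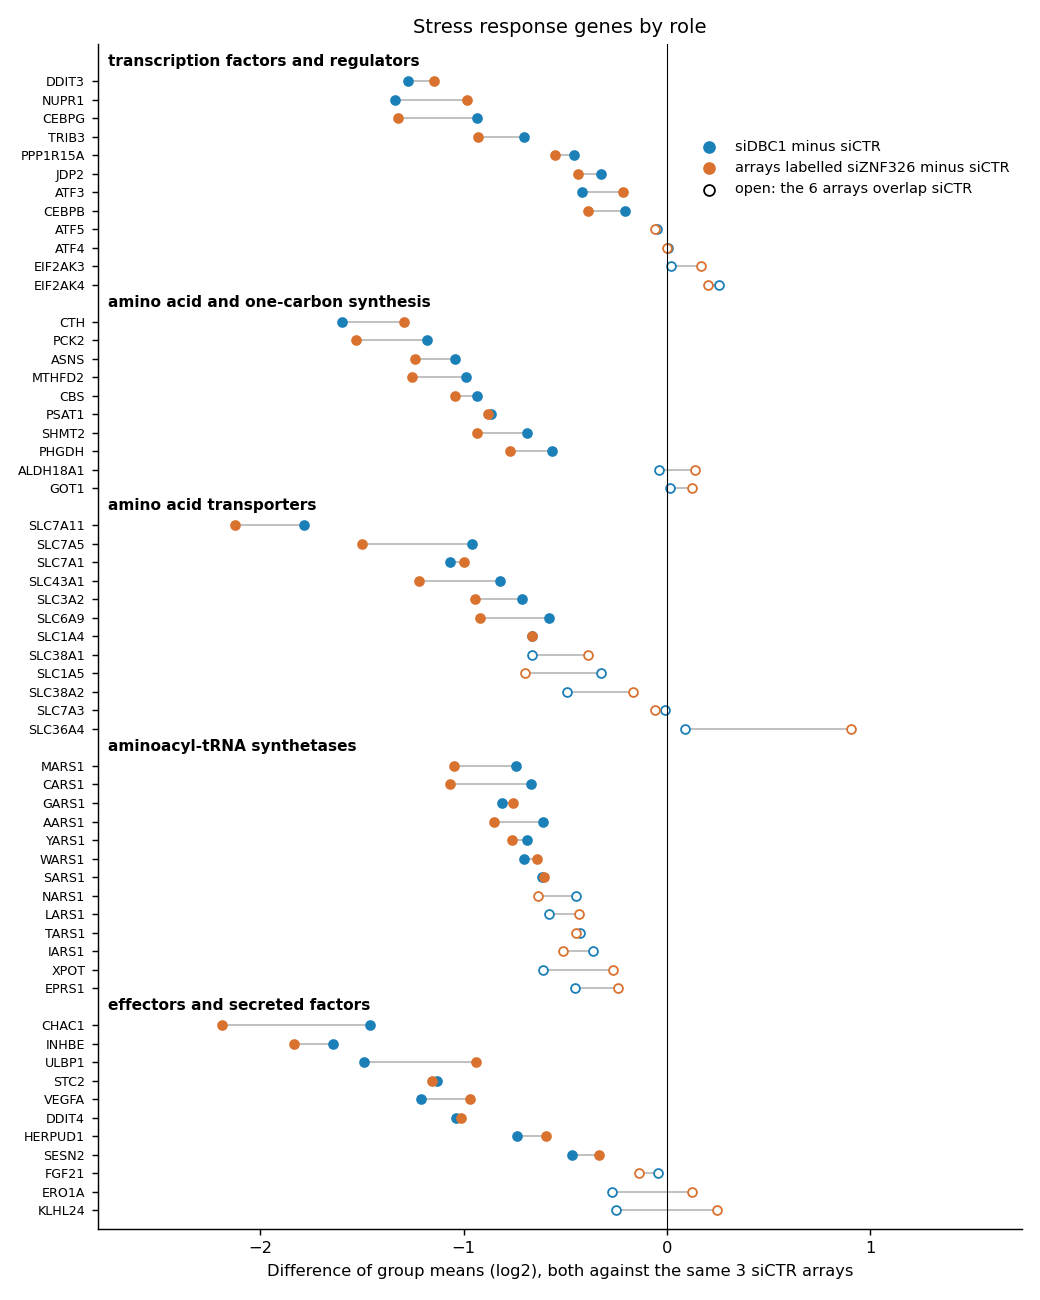
Difference of each siRNA group from siCTR (x axis, log2) for the 58 stress response genes measured, ordered by role; both points of a gene use the same 3 siCTR arrays, and open points mark genes whose 6 siRNA arrays overlap siCTR. The 38 filled genes lie left of 0 in both groups, and ATF4, ATF5 and SLC7A3 lie near 0.

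Of 30 genes measured on the p53 target lists, 2 rose, TP53I3 and CDKN1A, and the means of 26 lay above siCTR. TP53I3, a quinone oxidoreductase (probe set 2544201), read 5.78, 5.46 and 5.61 in siCTR, 6.46, 6.41 and 6.58 in siDBC1, and 7.38, 7.28 and 7.15 in siZNF326. The 3 groups did not overlap, and the change was 1.26 (SE 0.094, limma adjusted p = 0.0090), or 2.40-fold. CDKN1A, the cell cycle inhibitor p21 (probe set 2905169), read 7.16, 6.82 and 7.22 in siCTR, 7.93, 7.84 and 7.98 in siDBC1, and 8.72, 8.69 and 8.32 in siZNF326. Again the groups did not overlap, and the change was 1.18 (SE 0.125, limma adjusted p = 0.0227). BAX, which permeabilises mitochondria in apoptosis, read from 7.14 to 7.53 in siCTR and from 8.03 to 8.30 in the 6 siRNA arrays, a difference of 0.89 (SE 0.115, limma adjusted p = 0.0548) that did not pass. TIGAR, a fructose bisphosphatase, had a larger difference, 1.33, with a wide spread, from 6.34 to 7.96 in the siRNA arrays (limma adjusted p = 0.264). RPS27L had the largest difference of the p53 lists, 1.54, but overlapped siCTR (limma adjusted p = 0.752). It read from 2.55 to 4.12 in siCTR and from 3.15 to 6.85 in the siRNA arrays. Over the 3 p53 lists 7 of 30 measured genes (23.3%) were separated above and 0 below, beside 2.48% and 1.59% of all genes, and 23 overlapped siCTR. The means of CCNG1, CCNG2, GADD45A and PMAIP1 lay below it, by at most 0.09. The separated genes were CDKN1A, TP53I3, BAX, TIGAR, PLK2, the polymerase gene POLH and PIDD1. The median difference of the 30 was 0.44, with 0.24 in siDBC1 and 0.56 in siZNF326. Within siDBC1 it differed by array, at 0.28, 0.01 and 0.61. PIDD1 was not separated once arrays were rescaled by quantiles or centred on their medians. ZMAT3, TP53INP1 and FAS, which overlapped siCTR as deposited, were separated above under both rescalings.

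Other called rises were spread over functions. CTSA, a lysosomal carboxypeptidase (probe set 3887117), read 7.18, 7.20 and 7.30 in siCTR, 8.07, 7.95 and 8.28 in siDBC1, and 8.47, 8.39 and 8.18 in siZNF326. The gap to the nearest control was 0.65, and the change was 0.997 (SE 0.099, limma adjusted p = 0.0199). POLR2L, a small subunit shared by the 3 nuclear RNA polymerases (probe set 3358492), read 6.89, 6.76 and 7.01 in siCTR, 7.82, 7.91 and 7.92 in siDBC1, and 7.54, 7.64 and 7.58 in siZNF326. It rose by 0.85 (SE 0.074, limma adjusted p = 0.0139), with siDBC1 above siZNF326. TMSB10, which binds actin monomers (probe set 2491271), read 8.93, 8.86 and 8.99 in siCTR and from 9.55 to 9.86 in the siRNA arrays, a change of 0.84 (SE 0.086, limma adjusted p = 0.0207). GNPDA1, a glucosamine phosphate deaminase, changed by 0.68 (SE 0.083, limma adjusted p = 0.0464). ZCCHC12, a zinc finger gene (probe set 3988596), had the largest difference of any separated gene with 1 symbol above siCTR and did not pass. It read 5.86, 5.65 and 6.11 in siCTR, 7.12, 6.73 and 7.65 in siDBC1, and 8.52, 8.22 and 7.77 in siZNF326, a difference of 1.79 (SE 0.236, limma adjusted p = 0.0555).

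**Figure D3:**
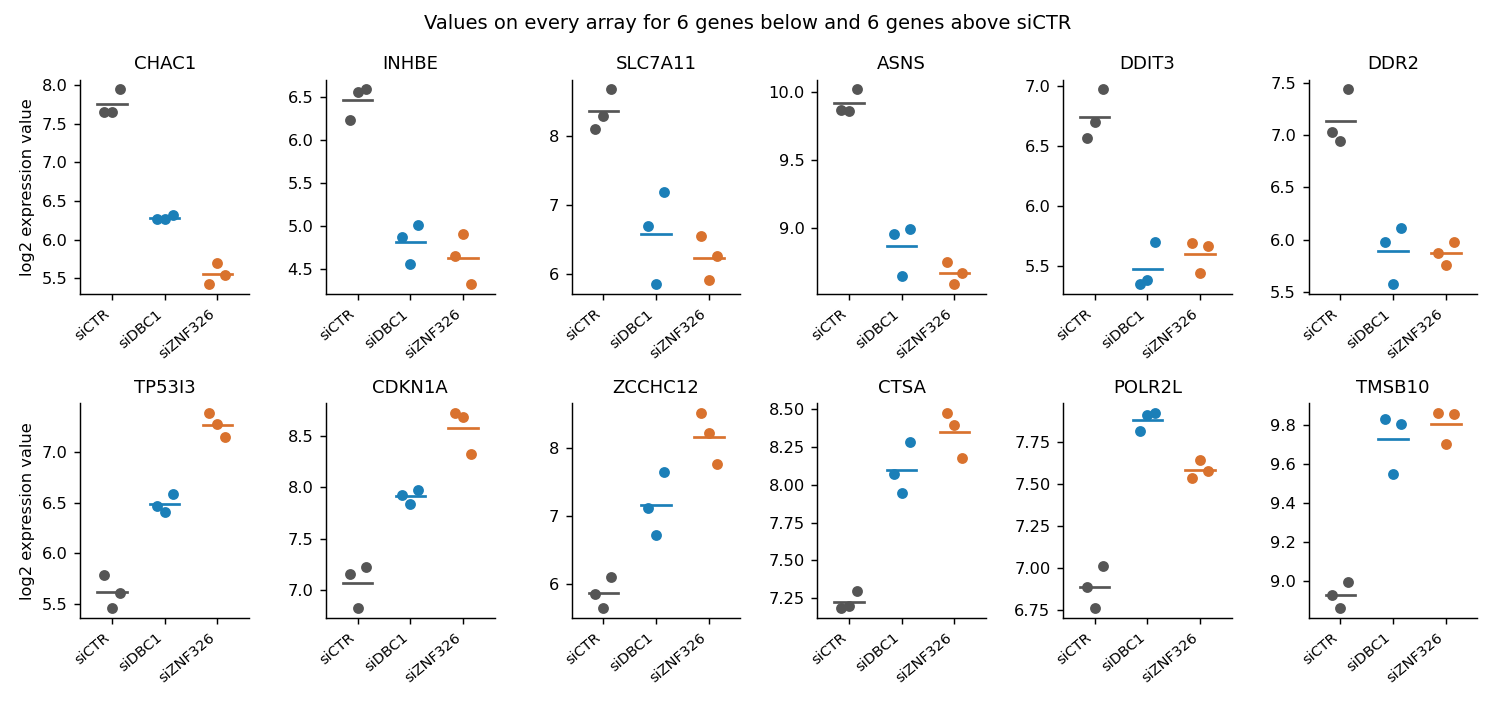
log2 value (y axis) on each of the 9 arrays for 12 genes, with 1 point per array, a line at the group mean and a separate y range in each panel. In every panel the 6 siRNA points lie on 1 side of the 3 siCTR points; for CHAC1, TP53I3, CDKN1A and ZCCHC12 the siDBC1 arrays lie between siCTR and siZNF326.

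DDR2 (probe set 2364231) differed least between the siRNAs among the named falls. It read 7.03, 6.95 and 7.43 in siCTR, 5.97, 5.57 and 6.11 in siDBC1, and 5.87, 5.76 and 5.98 in siZNF326, a change of −1.26 (SE 0.153, limma adjusted p = 0.0464). Its difference from siCTR did not pass in siDBC1 (limma adjusted p = 0.124) or in siZNF326 (0.0592) alone, which made it the 1 probe set of the 22 called in neither comparison. Of the 22, 6 also passed in siDBC1 alone and 20 in siZNF326 alone. Those comparisons called 8 probe sets (0.0363%) and 33 probe sets (0.150%) in all, and in them the 3 arrays of the group lay apart from siCTR for 8.84% and 18.2% of probe sets; they share the siCTR arrays with each other and with the pooled one.

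In several further lists the separated genes lay mostly on 1 side and few or none passed; among all genes 2.48% were separated above, 1.59% below, and 7.24% (1031) had an unadjusted p under 0.05. Of 19 genes of ERK output and immediate early genes, 8 (42.1%) were separated above siCTR, 0 below and 0 called by limma (10 at an unadjusted p under 0.05), with a median of 0.23. DUSP6, the phosphatase of ERK, read 4.52, 4.49 and 4.60 in siCTR, 5.39, 4.98 and 5.28 in siDBC1, and 5.57, 5.39 and 5.71 in siZNF326, a difference of 0.85 (limma adjusted p = 0.0548). JUNB, an AP-1 subunit, had a difference of 0.52 and EGR1, an early zinc finger factor, of 0.42; ETV5, IER3, CCND1, FOS and DUSP5 were the others. MYC was the 1 member with a mean below siCTR, at −0.44 (limma unadjusted p = 0.00686, adjusted p = 0.371), and its arrays overlapped siCTR. The count of 8 depended on scaling: EGR1, FOS, DUSP5, IER3 and CCND1 were not separated under quantile rescaling, and 3 (DUSP6, JUNB and ETV5) held under both rescalings. Of 13 heat shock genes measured out of 18 listed, 5 (38.5%) were separated above: HSPA4L, HSPH1, HSPA2, DNAJB1 and HSPB1, with differences from 1.03 to 0.40. The median was 0.40, with 0 called by limma (7 at an unadjusted p under 0.05). Probe sets with several symbols do not enter the lists, so 0 called covers the 13 measured genes and not the rest of the 18. DNAJA1 and BAG3 overlapped siCTR as deposited and were separated above under both rescalings. HSPB1 was not separated under quantile rescaling. Of 18 lysosomal genes, 5 (27.8%) were separated above, CTSA, GLA, ATP6V0D1, NEU1 and CTSZ, and CTSA passed; CTSZ was not separated under either rescaling. The median was 0.16, and 0.09 without siDBC1 replicate 3. NEU1, the lysosomal sialidase, read from 7.34 to 7.45 in siCTR and from 7.61 to 8.08 in the siRNA arrays.

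The arm of the endoplasmic reticulum was mixed, with CALR, SDF2L1, CRELD2 and MANF above siCTR and XBP1, a transcription factor of the unfolded protein response, below, among 17 genes. SDF2L1, CRELD2 and MANF were not separated under quantile rescaling, so that of these CALR and XBP1 alone held under both rescalings. HSPA5, which overlapped siCTR as deposited, was separated above under both rescalings. The median was 0.17. Leaving out siDBC1 replicate 3 made it 0.10, leaving out replicate 2 of that group 0.27, and leaving out siCTR replicate 3 made it 0.28. CALR, a chaperone of glycoproteins, read from 10.11 to 10.21 in siCTR and from 10.50 to 10.88 in the siRNA arrays, a difference of 0.52 (limma adjusted p = 0.157). Of 18 replication-dependent histone genes, 6 (33.3%) were separated below and 1, H1-3, above; the median was −0.20, and it was −0.09 without siCTR replicate 3. H2AC11 was not separated under either rescaling. H3C10 had the largest of these differences, −0.73, and 0 passed limma (6 at an unadjusted p under 0.05); histone genes resemble each other, so probe sets may share signal. RNA polymerase II subunits and elongation factors had 4 of 25 separated above (POLR2L, PAF1, POLR2A and SUPT5H), and the median of 0.23 was 0.11 without siDBC1 replicate 3.

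Pathway lists without a separated gene as deposited were cholesterol synthesis (0 of 15), ribosomal proteins (0 of 11), double-stranded RNA and interferon response (0 of 18) and subunits and partners of DBIRD (0 of 10). Among all genes 2.48% were separated above and 1.59% below. Counts of 0 or 1 in lists of this size are near that share and are no result about the list. Of the 15 cholesterol genes, 5 (33.3%) had an unadjusted limma p under 0.05, beside 7.24% of all genes, with a list median of 0.17. FADS2 and IDI1 were separated above under both rescalings, DHCR7 and INSIG1 under quantile rescaling. An unadjusted limma p under 0.05 held for 1 of the 11 ribosomal genes and 2 of the 10 on the DBIRD list. The interferon list, read here because transfected RNA can trigger it, had a median of 0.06, with 0 called by limma and 0 at an unadjusted p under 0.05. In the S-phase list CCNE1 was separated above (1 of 15), and among G2/M genes CDC20 was above and AURKB below (2 of 17). AURKB was not separated under either rescaling. Among 9 NRF2 targets HMOX1, which degrades haem, was above with 0.80 and PRDX1, a peroxidase, with 0.42, while SLC7A11, also on that list, was below. Among 18 neuronal genes the neurofilament gene NEFM (1.25) and MAP1A (0.997) were above. Oxidative phosphorylation had 3 of 25 above (12%: COX7B, ATP5MC1 and NDUFA2), SR and hnRNP proteins 1 of 20 (5%: HNRNPM) and small RNA silencing 1 of 13 (7.69%: DGCR8). DGCR8 was not separated under either rescaling, and ATP5MC1 not under quantile rescaling. In the hypoxia and glycolysis list ENO1 and PKM were above and VEGFA, HK2 and LDHA below, among 17; PKM and LDHA were not separated under either rescaling, and ENO1 not after centring. The medians of these cycle lists, 0.07 and 0.05, changed sign without siDBC1 replicate 3, to −0.01 and −0.11.

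**Figure D4:**
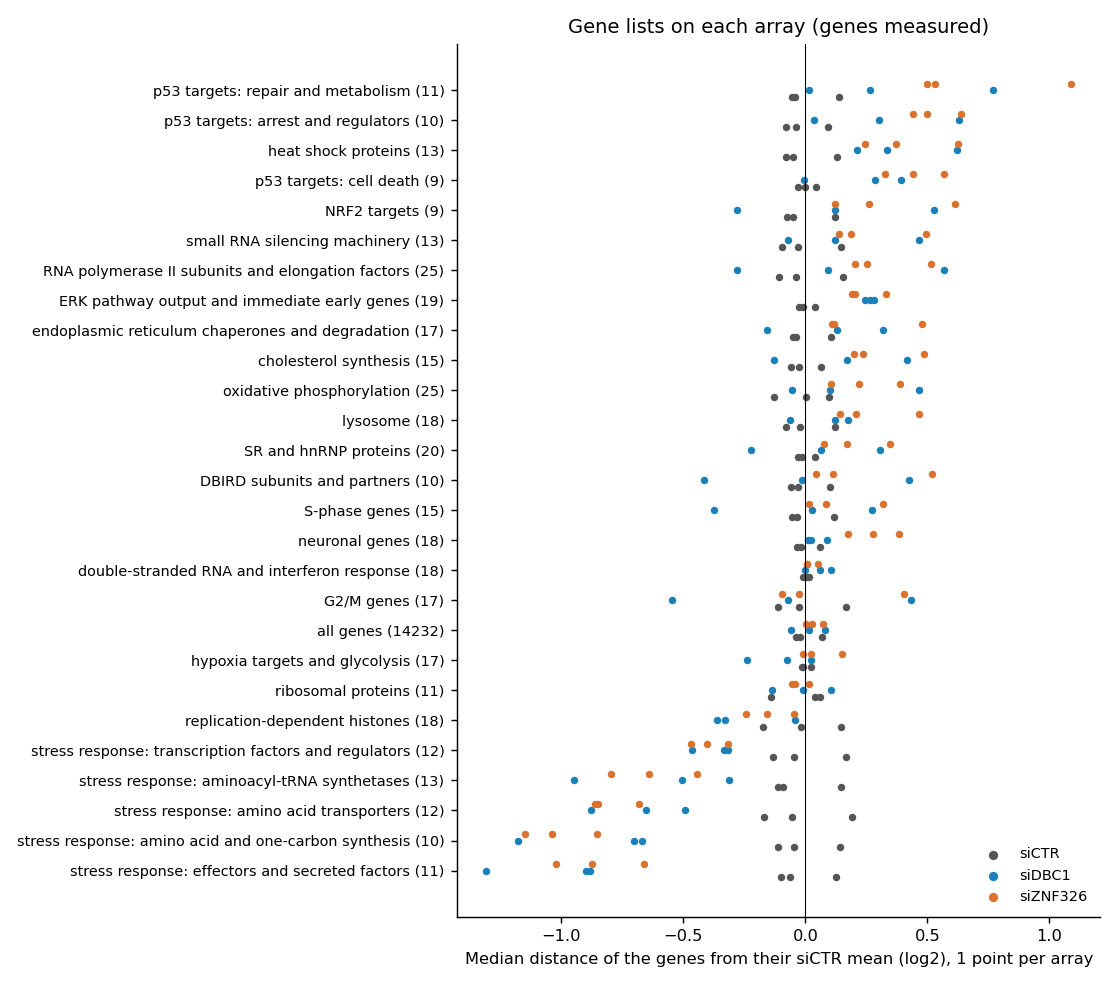
Median distance of each list's genes from their siCTR mean (x axis, log2) on each of the 9 arrays, with the number of genes measured in parentheses. The siRNA arrays lie left of the siCTR arrays in the 5 stress lists, and in other lists the arrays of 1 siRNA group spread widely, as in G2/M genes.

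The siRNA groups were compared with each other inside the separated genes, a contrast the choice of genes did not use but did restrict, since both groups had to lie on 1 side of siCTR. Of the 861 separated probe sets, 0 passed in siZNF326 minus siDBC1 (limma, adjusted over all probe sets), against 2 (0.00909%) in the whole table, and 85 had an unadjusted p under 0.05. The 3 arrays of one siRNA group lay wholly apart from the 3 of the other in 137 of the 861 (15.9%), against 9.45% of all probe sets. In 93 of these 137, siZNF326 was farther from siCTR, and in 44, siDBC1. Some genes were named for this very contrast, so their values are given as a description. CHAC1 (−0.73), SLC7A5 (−0.54), TP53I3 (0.79) and MAP1A, a microtubule protein (0.95), were chosen for a large difference between the siRNAs. DDR2 (−0.02), DDIT3 (0.12), INHBE (−0.19) and TMSB10 (0.08) were chosen for a small one. Among called genes named for other reasons, the difference was 0.66 for CDKN1A (95% interval 0.327 to 0.995), −0.30 for POLR2L (−0.50 to −0.10) and −0.35 for PCK2 (−0.71 to 0.01), and none of these passed limma after adjustment (adjusted p from 0.414 to 0.685).

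Most separated probe sets were set apart by little. The gap between the nearest siRNA array and the nearest control had a median of 0.067 above and 0.071 below siCTR, and it reached 0.2 in 74 and 79 probe sets and 0.5 in 14 and 22. The difference of means had a median of 0.36 above and −0.37 below, and was at least 2-fold in 27 and 25 probe sets. The separated probe sets closest to the edge were NAB2, INHA and ZC3H8, with gaps of 4e-04, and those just outside were EDA, at −1e-04, and RNF207 and PADI2, at −2e-04. In 496 probe sets the nearest arrays were tied and were not counted. Of the probe sets below, 157 (45.1%) were in the top quartile of mean level, and of those above, 179 (34.9%).

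The balance of directions depended on scaling. As deposited, 59.6% of the separated probe sets were above siCTR. After quantile rescaling it was 45.1% (662 above, 807 below), and after centring arrays on their medians 46.2% (591 above, 687 below). Over all probe sets the median difference was 0.02 as deposited, −0.02 after quantile rescaling and −0.03 after centring. In the same direction under all 3 scalings were 262 above (51.1%) and 237 below (68.1%). Single arrays mattered as well: 2226 probe sets were separated without siCTR replicate 3 and 1891 without siDBC1 replicate 2, 1457 without siCTR replicate 1 and 1431 without siCTR replicate 2. Leaving out an array can add to this count but not take from it. Without siDBC1 replicates 2 and 3 and siZNF326 replicate 1 together, 2909 were separated, and 0 passed limma, with 2171 at an unadjusted p under 0.05; siDBC1 then had 1 array, assumed to vary like the other groups.

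**Figure D5:**
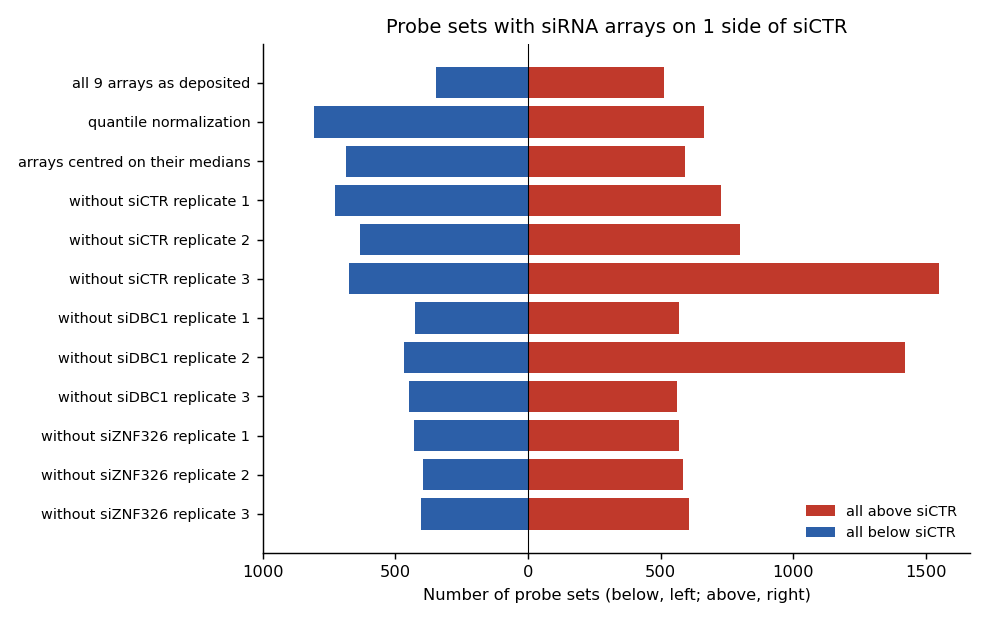
Number of probe sets (x axis) with every siRNA array above (right) or below (left) every siCTR array, for all 9 arrays as deposited, after rescaling and with each array left out. The bar without siCTR replicate 3 is the longest, with 1551 above and 675 below, against 513 and 348 with all 9 arrays.

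The separated genes had shorter spans than the genes of the array. The median span was 20.8 kb above siCTR (quartiles 8.19 and 43.7) and 20.5 kb below (7.26 and 43.0), against 27.9 kb (10.1 and 71.8) for the genes on the array, from RefSeq. Chromosome 19 held 10.4% of the genes above, 6.09% of those below and 6.67% of all. The median GC content of the promoters was 65.6% above, 62.8% below and 63.2% on the array.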

How the data were processed

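Per the labels, total RNA was column-purified and DNase-treated, freed of ribosomal RNA, labelled with biotin and hybridised to Affymetrix whole-transcript arrays. Each deposited value is on a log2 scale and came from RMA, run by the authors, with annotation on hg18, per the submitters' processing notes; RMA version and filters: not given in the sources used here. Base 2 was inferred from RMA and from values between 0.333 and 13.4. No detection values were used, so levels near background were not marked. Precision is limited by the number of arrays.

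Of 22011 probe sets, 14432 carried 1 symbol, 2408 several and 5171 none; symbols matched a current RefSeq table through gene identifiers for 14404. The probe set with the highest mean stood for each of 14232 genes in gene lists. In the span, chromosome, GC and motif summaries a gene counted as above or below when any of its probe sets with 1 symbol was separated (357 above, 230 below). limma 3.58.1 in R 4.3.3 (lmFit, eBayes) was fitted to all 9 arrays in 3 groups, without filter or rescaling, and tested on simulated data. The contrasts were two-sided, with p adjusted by Benjamini and Hochberg within each over all probe sets and a threshold of 0.05; p-values measure the spread between arrays described as independent experiments. Separation needed strict inequality. Lists are described by counts and medians, with no set test. The 32 lists, the members and the rules were chosen with earlier results of these data known.

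Named genes have 1 symbol. They are CCAR2 and ZNF326; up to 15 called and separated genes per direction, filled to 12 by the widest gap; the 5 widest gaps per direction; up to 3 separated members with the smallest p per list; the 4 separated genes per direction with the largest difference between siRNAs; and the 6 called ones with the smallest. Other list members and the genes in the closing observations were named after their values were seen. Same-numbered arrays of different groups had deviation correlations from −0.30 to 0.40, with 3 of 9 pairs over 0.1, so numbers were not taken to pair samples. Alternatives were a replicate block, quantile and median scaling, probe sets above the median level, eBayes with trend and robust settings, fits on fewer groups, a gap of at least 0.2, 1 probe set per symbol and each array left out. Leaving out 3 arrays together was added after seeing the data. Promoters came from RefSeq (GRCh38.p14) and were found for 80.1% of the genes above, 81.3% of those below and 80.0% of those on the array.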

Additional observations from a re-analysis of the deposited data

Results flagged for a closer look

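Among all probe sets, 2 differed between the siRNA groups by the test of the difference itself (siZNF326 minus siDBC1, limma). CCAR2, the gene of DBC1, was 1.42 higher in the arrays labelled siZNF326 than in siDBC1 (log2, adjusted p = 0.00311), and GET3, which delivers tail-anchored proteins to the endoplasmic reticulum, had a difference of −1.21 (adjusted p = 0.0219). Neither was among the separated genes.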

How the results depend on the processing

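With all 9 arrays, the pooled comparison called 22 probe sets. It called 148 after quantile normalization, 83 with arrays centred on their medians, 54 among probe sets above the median level, 14 in a 2-group fit of 6 against 3 arrays, from 1 to 36 without single arrays, and 0 without the 3 arrays that stand apart. With a replicate block it called 1, siZNF326 minus siDBC1 0 (1769 at an unadjusted p under 0.05 in limma), siDBC1 0 (1360 at an unadjusted p under 0.05 in limma) and siZNF326 1; the numbers are not shown to pair the samples. For siZNF326 minus siDBC1 the count of 2 became 28 after quantile normalization, 9 after centring and 0 to 1 without single arrays. For siDBC1 the count of 8 became 69, 46, 4 with trend and robust settings, 0 on the 6 arrays compared (1100 unadjusted) and 0 to 4 without single arrays. For siZNF326 the count of 33 became 196, 119, 68 above the median level, 5 on the 6 arrays compared and 1 to 64 without single arrays. Of 861 separated probe sets (513 above, 348 below), the count was 1469 after quantile normalization (807 below), 573 above the median level (220 below), 153 with a gap of at least 0.2 (74 above, 79 below), from 981 to 2226 without single arrays (561 to 1551 above, 395 to 729 below) and 2909 without the 3 arrays (1779 above, 1130 below). After centring, 687 were below, and with 1 probe set per symbol 227. Fewer probe sets or arrays enter some of these by construction; for the rest the cause was not tested. Among 69 named genes, 897 alternative values held 0 that changed sign, 168 that lost and 32 that gained the threshold; among 32 list medians, 66 of 448 moved by more than the spread between the control arrays and 20 changed sign.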

Other observations

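Further genes outside the lists were separated by a wide gap and did not pass the limma test; they were chosen after their values were seen. Below siCTR were LRRC8D, a subunit of volume-regulated anion channels, at −1.18 (adjusted p = 0.0801), G0S2, an inhibitor of the lipase that opens fat breakdown, at −1.02 (0.0747), and FUT1, a fucosyltransferase, at −1.05 (0.0801). LRRC8D read 9.18, 8.80 and 9.08 in siCTR and from 7.28 to 8.10 in the siRNA arrays, with no overlap. STC1, a relative of STC2, differed by −0.80, EIF1, a factor of start codon choice, by −0.65 and EIF4EBP1, a repressor of translation initiation under mTORC1, by −0.65.

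Above siCTR, HEXIM1, which holds the elongation kinase P-TEFb inactive, read 5.57, 5.71 and 5.71 in siCTR, 6.23, 6.04 and 6.59 in siDBC1, and 6.84, 6.60 and 6.48 in siZNF326, a difference of 0.80 (limma adjusted p = 0.113). PNP, a purine salvage enzyme, differed by 0.69 (0.0801) and TGFB1, a secreted growth factor, by 0.68 (0.140). COQ10B, a gene of coenzyme Q handling, differed by 1.32 with a wide spread, from 5.71 to 7.18 in the siRNA arrays (0.160).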
